A study of Ambystoma mexicanum with 6 samples.

Results

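The genes described here are the expressed axolotl genes whose models stretch over 1 Mb or more of the genome. They were chosen from the deposited count table as named nuclear gene models with a distance of at least 1000000 bp between the first and the last exon base and a mean of 10 or more counts over the 6 libraries. Of 99126 gene models, 1902 met these conditions, and 13217 named nuclear models with the same count minimum were shorter. Of the 2344 named nuclear models of 1 Mb or more, 402 were left out because their mean was below 10 counts and 40 because they had no count in any library. The choice used the level over all 6 libraries and not the difference between the groups. It was not blind to that difference, because 40 genes reached a mean of 10 counts in treated cells only and 16 in DMSO cells only, while 1846 reached it in both groups.

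The axolotl has a very large genome, and much of the excess lies in introns that were expanded by transposable elements. RNA polymerase II has to copy every intron before it is spliced out, so the transcript of such a gene takes long to make and its template is a large target for breaks and other obstacles to the polymerase. In vertebrates, long genes include many that encode cell adhesion molecules, ion channels, large cytoskeletal proteins, ubiquitin ligases and chromatin regulators.

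Polyadenylated RNA was sequenced from AL1, a line of wild-type fibroblasts from the axolotl, Ambystoma mexicanum. Treated cells (n = 3 libraries) received 10 µM etoposide, a topoisomerase II poison that causes DNA breaks, together with 1 µM nutlin-3a, an inhibitor of the binding of Mdm2 to p53, for 24 h. Nutlin-3a alone was then kept on for 11 days, and the cells were collected at day 14. DMSO cells (n = 3 libraries) received the solvent in the same volume, were passaged over the 12 days to keep them from becoming confluent, and are called proliferating in the labels. The labels call the treated cells senescent, with reduced DNA synthesis. Effects of the drugs and of reduced division therefore cannot be told apart, and both groups come from 1 cell line. Separate cultures are not named in the labels. The p-values below therefore measure how these libraries vary, which may be technical.

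Libraries held 33083856 to 46686876 counts in treated cells and 28604727 to 33633869 counts in DMSO cells. Principal component 1, with 83.0% of the variance of log2(CPM + 1), separated the groups. Libraries of a group differed by more than sampling noise, with a chi-square of 6.12 to 77.9 per degree of freedom. Of 15 fibroblast markers found, 8 averaged at least 1 CPM (counts in 1000000, scaled as below), with a summed level of 7700 to 9422 CPM in treated and 7247 to 7500 CPM in DMSO libraries, most of it vimentin. DCN, PRRX1 and THY1 were near 0. Of 7 white blood cell markers only CD74 passed 1 CPM, and their sum was 382 to 466 CPM in treated and 162 to 185 CPM in DMSO libraries, with PTPRC and SPI1 at 0. Of the fibroblast markers, FN1 averaged 73.5 CPM in treated and 149.6 CPM in DMSO libraries, COL1A1 157 CPM in treated and 241 CPM in DMSO libraries, and COL1A2 32.8 CPM in treated and 57.6 CPM in DMSO libraries. The 5 cartilage markers summed to 41.9 to 55.3 CPM in treated and 7.85 to 10.3 CPM in DMSO libraries, carried by COMP. The 7 keratinocyte markers summed to 937 to 1150 CPM in treated and 1298 to 1420 CPM in DMSO libraries, nearly all of it KRT18. KRT5 averaged 3.34 CPM in treated and 0.901 CPM in DMSO libraries, and CDH1, EPCAM, GRHL2 and KRT15 were near 0. The 5 Schwann cell and nerve markers summed to 19.4 to 31.1 CPM in treated and 33.2 to 38.4 CPM in DMSO libraries. The part of these markers in the results below was not tested. Among all listed markers found by symbol, only the endothelial ERG was a gene of 1 Mb or more with enough counts. The keratinocyte marker TP63 was not found by symbol, but LOC112060334, a long gene given below, is described as tumor protein 63-like.

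The genes spanned 1000436 to 3815199 bp, with a median of 1359835 bp. Most of each span lay in gaps between exons. The exons together had a median length of 5838 bp, against 3784 bp in the shorter genes, and filled a median of 0.41% of the span, against 1.95%. A gene had a median of 21 exon blocks, against 8 in the shorter genes. The longest gap between exons had a median of 212077 bp, which was 14.9% of the span, so most spans held many gaps. Whether the annotation joined separate genes into some of these models was not tested, so a model may hold more than its named gene. In 19 genes a single gap took at least 50% of the span, and in 7 genes it was itself 1 Mb or longer. Another gene model lay inside the span in 841 of the 1902 genes (44.2%), and 138 genes (7.26%) shared at least 10% of their exon bases with another model. The libraries do not mark strand, so reads in such shared bases cannot be assigned to either model. Genes of 1 Mb or more lay on all 28 chromosome arms and 2 unplaced contigs of the AmexG_v6_DD assembly. They made up between 4.67% of the expressed named genes on arm 13q and 17.98% on arm 4q. Per kb of exon the long genes had a median level of 0.811 CPM, against 1.69 CPM in the shorter genes, over the models tested.

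At the edge of the choice, INPPL1, an inositol phosphatase, spanned 1000436 bp and SPG7, a mitochondrial protease subunit, 1000572 bp, and both were taken. FAM193A with 999733 bp and LOC115091271 with 999626 bp were not. On level, CCSER1 and MRNIP had a mean of exactly 10 counts and were taken, while DACH2 and PLD5 had 9.83 and were not.

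Counts were compared with edgeR's quasi-likelihood test across all 17424 gene models with enough reads, after TMM scaling, and a gene was called at an adjusted p below 0.05. Of the 1902 long genes, 1893 were tested. In treated relative to DMSO cells, 397 were higher (21.0%) and 485 were lower (25.6%), and 1011 were not called. In these bulk libraries, fewer cells that express a gene and less RNA per cell cannot be told apart. Among all models tested, 25.5% were higher and 26.8% lower, so the share of long genes called higher was below that background and the share called lower was close to it. With a change of at least 2-fold, 121 of the 1893 long genes were higher and 161 lower. Both are smaller shares than the 11.7% and 12.9% of all models. All 3 treated libraries lay above all 3 DMSO libraries in 468 of the 1893 long genes, a smaller share than the 28.8% of all models. They lay below them in 593, a share close to the 31.4% of all models. The median log2 fold change of the long genes was -0.04, with a middle range from -0.52 to 0.41, beside -0.03 (-0.61 to 0.53) for all models. Of the called genes, 23 higher and 10 lower ones had passed the count minimum through the group in which they were high. These counts depend on the scaling. By library size alone the log2 fold change of the median model shifted by -0.37, 149 long genes were higher and 781 lower (13.3% and 40.3% of all models), and the median of the long genes was -0.41. With upper-quartile scaling the balance turned, with 478 higher and 405 lower (28.9% and 23.3% of all models), a median of 0.047 and a shift of the median model of 0.09. Without DMSO replicate 1 there were 375 higher and 362 lower with a median of 0.0072, and with any one of the other 5 libraries left out the median lay between -0.09 and -0.01. Relative to the median of all models, the long genes lay at -0.01 under each of the scalings tried.

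Genes of 1 Mb or more have a longer summed exon length and other levels than shorter genes. Each was therefore set beside the shorter gene nearest to it in summed exon length and mean level, which was possible for 1886 of them. Of the long models, 174 (9.15%) carry a name, endings ignored, that a tested model outside the long genes carries too. A gene may thus stand on both sides, here and in the role lists below. The median log2 fold change was -0.04 in the long genes and -0.15 in their shorter partners, a difference of 0.10. Of the long genes in these pairs 20.9% were higher and 25.7% lower, against 20.4% and 31.1% of the partners. The long gene had the higher fold change in 991 pairs and the lower one in 895. The difference was thus mainly fewer lower calls among the long genes, while higher calls were about equally common. Weighting the shorter genes over a grid of exon length and level gave 21.4% higher and 30.9% lower. Where the number of exons was matched too, 1394 pairs were left and the difference was 0.19. The variation between replicates was alike, with a median biological coefficient of variation of 0.154 in the long genes and 0.155 in the partners. These are descriptions over genes, which are not independent replicates, and no test was made of them.

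The calls and fold changes are also given by class of span, as a description without a test. Between 1 and 2 Mb, 338 of 1673 genes (20.2%) were higher and 449 (26.8%) lower, with a median log2 fold change of -0.08 (-0.02 without DMSO replicate 1), and with upper-quartile scaling 405 were higher and 373 lower. Between 2 and 3 Mb, 52 of 203 (25.6%) were higher and 36 (17.7%) lower, with a median of 0.12. Of the 17 genes of 3 Mb or more, 7 were higher and 0 lower, with a median of 0.73. That median is the value of TDRD12, which was not called. TDRD12 and CFAP61, both with positive fold changes, had passed the count minimum through the treated group only. The classes below 1 Mb gave no such order, with medians from -0.12 (30 to 100 kb) to 0.09 (under 10 kb), as the plot of calls and fold changes by span class shows. Across the long genes, span and log2 fold change had a Spearman correlation of 0.10, given as a description over 1893 genes that share the same 6 libraries. For the 2 to 3 Mb class the direction turned when libraries were scaled by size alone, with 17 higher, 64 lower and a median of -0.26, while the class of 3 Mb or more kept 6 higher and 0 lower with a median of 0.36. Relative to the median of all models, the 2 to 3 Mb class lay between 0.14 and 0.15 above under each of the 4 edgeR scalings. Without DMSO replicate 2 the 2 to 3 Mb class had 34 higher and 33 lower with a median of 0.11, without DMSO replicate 3 it had 35 and 33 with a median of 0.05, and without treated replicate 1 the median was 0.07. For the class of 3 Mb or more, leaving out any of the libraries gave 6 or 7 higher, 0 lower and medians between 0.55 and 0.87.

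**Figure D1:**
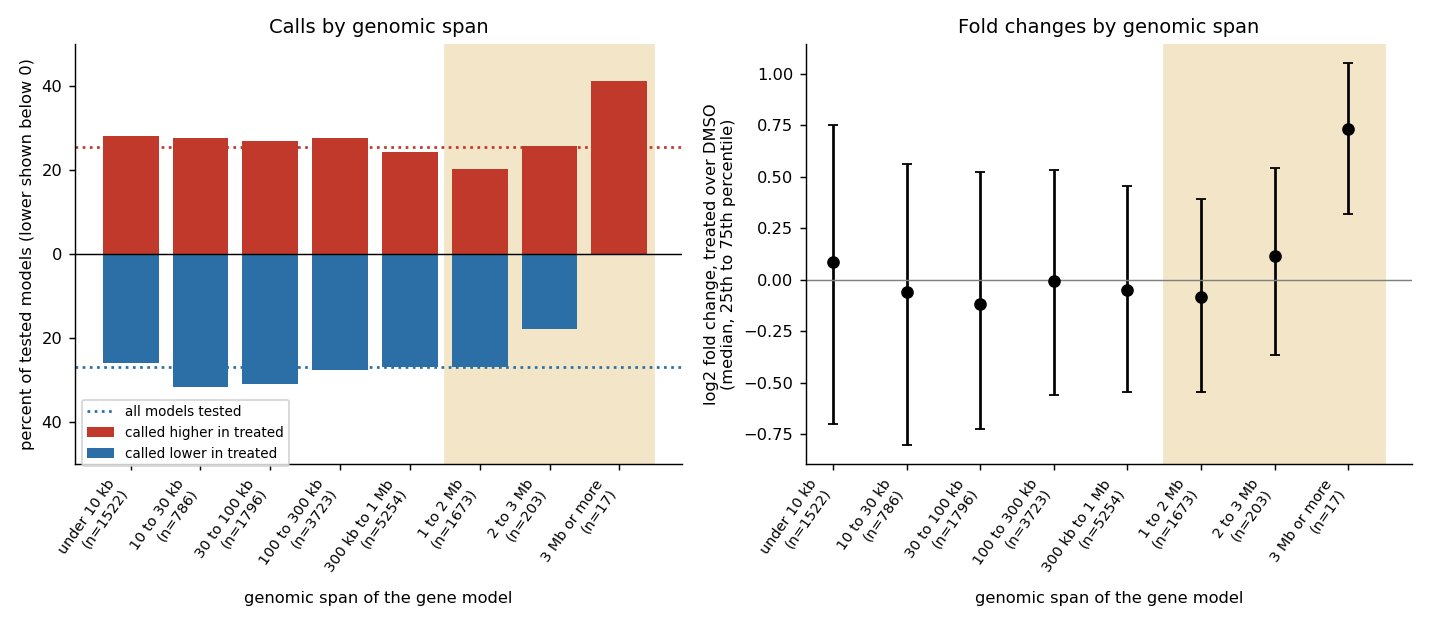
Calls and log2 fold changes (treated over DMSO) of expressed named genes by genomic span, with the classes of 1 Mb or more shaded. Left, percent called higher (red, above 0) and lower (blue, below 0), with dotted lines for all models tested (25.5% and 26.8%). Right, medians with the 25th to 75th percentile. The lower share falls to 17.7% at 2 to 3 Mb and to 0 of 17 genes at 3 Mb or more, where the median is 0.73. That median is the value of TDRD12, a gene near the count minimum that was not called.

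The 17 longest expressed genes were looked at one by one. VPS13B, a lipid transfer protein of the Golgi, had the longest span, 3.82 Mb (arm 5q, 865396196 to 869211395), with 67 exon blocks. It had 8.12, 8.84 and 9.77 CPM in the treated libraries, against 9.01, 9.53 and 8.53 CPM in the DMSO libraries. The groups overlapped and no difference was detected (log2 fold change -0.02 ± 0.15 SE, edgeR adjusted p = 0.924). TRAPPC9, a subunit of a trafficking complex at the Golgi (arm 5q, 1121020340 to 1124648180), had 8.93, 6.904 and 6.37 CPM in the treated libraries, against 5.97, 5.201 and 5.81 CPM in the DMSO libraries. All treated libraries were higher, but the difference did not pass the threshold (log2 fold change 0.39 ± 0.17 SE, edgeR adjusted p = 0.0751). With upper-quartile scaling it did (adjusted p = 0.0312). HERC1, a giant ubiquitin ligase (arm 11q, 25935134 to 29539935), had 3.07, 1.98 and 2.01 CPM in the treated libraries, against 1.61, 1.91 and 1.74 CPM in the DMSO libraries. Its treated libraries were also all higher without a call (log2 fold change 0.44 ± 0.24 SE, edgeR adjusted p = 0.147).

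MSH3, a DNA mismatch repair protein (arm 6p, 623325106 to 626818717), had 0.515, 0.427 and 0.232 CPM in the treated libraries, against 0.503, 0.598 and 0.412 CPM in the DMSO libraries, near the count minimum, and the groups overlapped (log2 fold change -0.36 ± 0.42 SE, edgeR adjusted p = 0.484). TDRD12, which takes part in small RNA pathways of the mammalian germ line (arm 1q, 289915924 to 293331991), was as low and overlapped too, with 0.381, 0.543 and 0.258 CPM in the treated libraries, against 0.227, 0.179 and 0.286 CPM in the DMSO libraries (log2 fold change 0.73 ± 0.46 SE, edgeR adjusted p = 0.202). It had passed the count minimum through the treated group only. CNTNAP2, an adhesion molecule of the neurexin family best known from neurons (arm 2p, 934960640 to 938399343), was the longest gene called, with 6.07, 4.54 and 6.11 CPM in the treated libraries, against 2.57, 2.93 and 3.27 CPM in the DMSO libraries. Its lowest treated library was above its highest DMSO library (log2 fold change 0.94 ± 0.19 SE, edgeR adjusted p = 0.00111).

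The other 6 genes of 3 Mb or more that were called are given because the class held so few, and not by the rule for named genes. CHCHD6, a mitochondrial protein that shapes the cristae (arm 2q, 112248365 to 115629824), had 1.61, 2.17 and 1.44 CPM in the treated libraries, against 0.705, 0.239 and 0.634 CPM in the DMSO libraries (log2 fold change 1.70 ± 0.36 SE, edgeR adjusted p = 0.00146). NF1, which switches off Ras (arm 9p, 241669340 to 245009286), had 8.796, 11.4 and 7.68 CPM in the treated libraries, against 4.91, 4.304 and 5.49 CPM in the DMSO libraries (log2 fold change 0.92 ± 0.18 SE, edgeR adjusted p = 9.42e-04). SEC31B, a coat protein of vesicles that leave the endoplasmic reticulum (arm 8p, 645708657 to 648774473), had 2.55, 2.83 and 2.604 CPM in the treated libraries, against 1.01, 1.11 and 1.02 CPM in the DMSO libraries, with very little spread within groups (log2 fold change 1.35 ± 0.23 SE, edgeR adjusted p = 2.30e-04). The treated libraries were above the DMSO libraries in each of these genes. LOC104074128, which the table describes as contactin-5 (arm 7q, 788052157 to 791087249), had 34.4, 27.2 and 33.6 CPM in the treated libraries, against 14.98, 8.67 and 8.28 CPM in the DMSO libraries (log2 fold change 1.57 ± 0.20 SE, edgeR adjusted p = 2.35e-05). DR999_PMT21268, for which the table gives a locus tag only (arm 3p, 863700694 to 866756791), had 10.5, 13.3 and 11.99 CPM in the treated libraries, against 6.17, 5.74 and 5.298 CPM in the DMSO libraries (log2 fold change 1.05 ± 0.16 SE, edgeR adjusted p = 8.31e-05). FRYL, a relative of the Furry proteins that shape cells (arm 6q, 1079370384 to 1082403728), had 1.19, 1.05 and 0.619 CPM in the treated libraries, against 0.503, 0.538 and 0.412 CPM in the DMSO libraries (log2 fold change 0.96 ± 0.36 SE, edgeR adjusted p = 0.0371). Of the 10 that were not called, 8 had positive log2 fold changes, from 0.23 in WDPCP, a protein of planar cell polarity and cilia, to 1.32 in the ciliary CFAP61 (adjusted p = 0.0552). Among these 8 the groups overlapped in TDRD12, PARPI_0014716, WDPCP, CFAP61 and SNED1.L. CFAP61 had passed the count minimum through the treated group only.

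**Figure D2:**
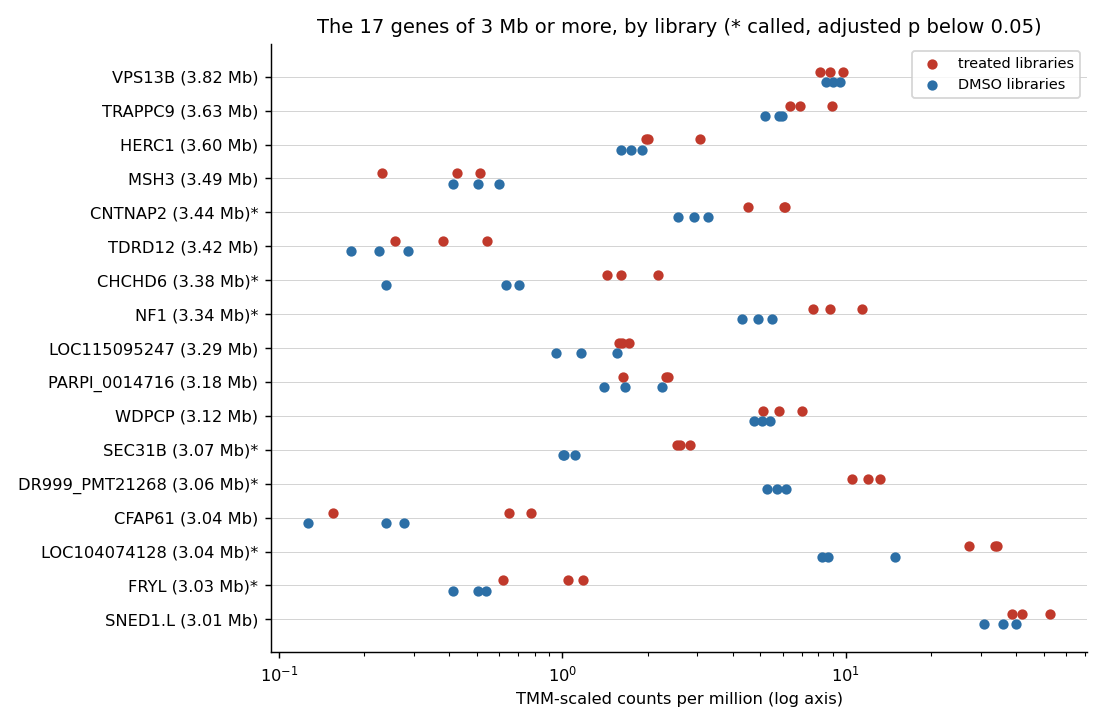
TMM-scaled CPM (log axis) of the 17 genes of 3 Mb or more in each treated (red, upper) and DMSO (blue, lower) library, from the longest at the top to the shortest, with a star at the 7 called. In all 7 the treated points lie right of the DMSO points. The groups overlap in VPS13B, MSH3, TDRD12, PARPI_0014716, WDPCP, CFAP61 and SNED1.L.

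The share of each library that fell in genes of 1 Mb or more was small. It was 3.17%, 2.68% and 3.03% of all gene counts in the treated libraries, against 3.61%, 3.36% and 3.26% in the DMSO libraries, or 2.96% ± 0.25 and 3.41% ± 0.18 (SD, n = 3 each). The groups did not overlap, and the treated share was the lower one. On the TMM scale the order was the other way round, with summed levels of 33094, 34371 and 33459 CPM in the treated and 30519, 29660 and 29617 CPM in the DMSO libraries, since the TMM factors were 0.96, 0.78 and 0.91 in treated and 1.18, 1.13 and 1.10 in DMSO libraries. A single gene, LOC114590001, held 15.4%, 18.6% and 17.8% of the long genes' counts in treated and 8.31%, 10.2% and 11.9% in DMSO libraries. Without it the shares were 2.68%, 2.18% and 2.49% in treated and 3.31%, 3.02% and 2.88% in DMSO libraries. The TMM-scaled sums above include LOC114590001 too, and with its part taken out they overlap between the groups. Each library's median deviation from the gene means was also taken for the long genes and their matched partners. The long genes lay above their partners by 0.02, 0.05 and 0.05 log2 units in the treated libraries, and by 0.01, -0.07 and -0.07 in the DMSO libraries. The groups did not overlap, but DMSO replicate 1 lay closer to the treated libraries than to the other DMSO libraries.

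**Figure D3:**
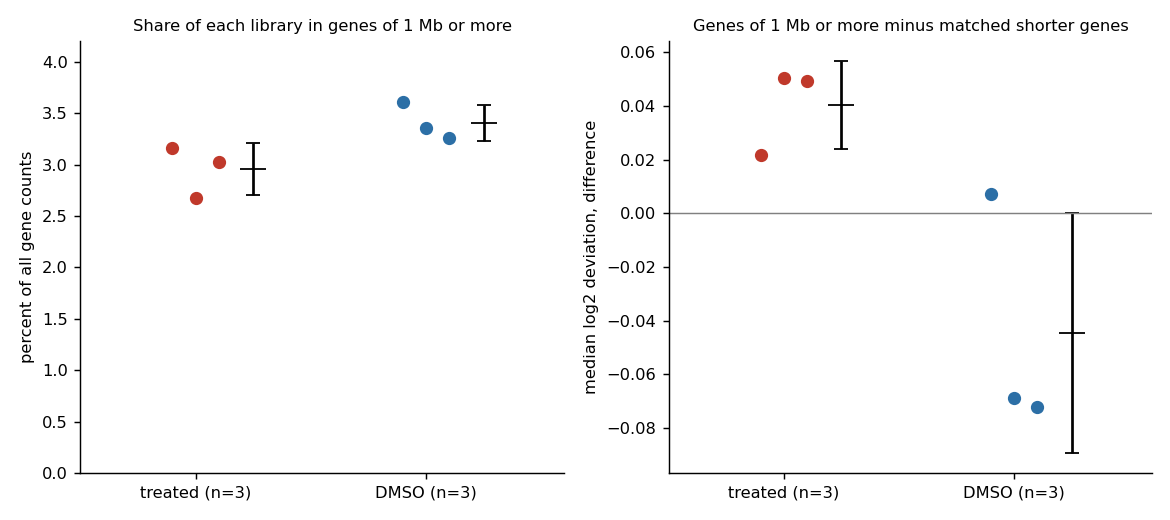
Left, percent of all gene counts that fell in genes of 1 Mb or more, per library. Right, median log2 deviation of the long genes from their mean over the 6 libraries minus that of matched shorter genes. Points are libraries, and bars are the mean ± SD of 3. The treated libraries hold the smaller share (2.68% to 3.17%, against 3.26% to 3.61%) and the larger deviation.

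The 8 largest increases among genes with at least 1 CPM included metabolic, signalling and ciliary genes. PYROXD2, a predicted mitochondrial oxidoreductase (arm 8q, 583967211 to 584992827), had 3.65, 5.35 and 3.74 CPM in the treated libraries, against 0.302, 0.179 and 0.444 CPM in the DMSO libraries. Its treated libraries were all far above the DMSO libraries (log2 fold change 3.77 ± 0.32 SE, edgeR adjusted p = 5.55e-07). LOC115481879, an uncharacterised gene (arm 13p, 81556673 to 82585363) whose longest gap took 62.6% of the span, had 34.98, 34.2 and 29.1 CPM in the treated libraries, against 3.07, 2.63 and 2.38 CPM in the DMSO libraries (log2 fold change 3.60 ± 0.16 SE, edgeR adjusted p = 4.30e-09). LOC104080960, described in the table as a Nek1-like kinase (arm 6q, 850822034 to 852132983), had 32.6, 36.2 and 34.6 CPM in the treated libraries, against 4.93, 5.47 and 5.71 CPM in the DMSO libraries (log2 fold change 2.68 ± 0.13 SE, edgeR adjusted p = 7.25e-09). Both were tightly grouped within each group of libraries. GPR137B, a lysosomal membrane protein (arm 4q, 7924116 to 8951714), had 23.4, 27.03 and 25.9 CPM in the treated libraries, against 4.33, 4.09 and 5.08 CPM in the DMSO libraries (log2 fold change 2.50 ± 0.15 SE, edgeR adjusted p = 2.27e-08). Of its exon bases, 20.6% were shared with another model. ACOT7, an acyl-CoA thioesterase (arm 8p, 552486143 to 553922130), had 2.19, 2.48 and 2.96 CPM in the treated libraries, against 0.478, 0.448 and 0.508 CPM in the DMSO libraries (log2 fold change 2.41 ± 0.27 SE, edgeR adjusted p = 7.34e-06). VIPR2, a receptor for vasoactive intestinal peptide (arm 2p, 713278503 to 714414240), had 3.76, 3.68 and 4.28 CPM in the treated libraries, against 0.604, 0.986 and 0.698 CPM in the DMSO libraries (log2 fold change 2.36 ± 0.25 SE, edgeR adjusted p = 3.66e-06). No library of the other group came near in either gene. PTPRO, a receptor tyrosine phosphatase (arm 12p, 216904312 to 218210844), had 2.73, 1.98 and 2.35 CPM in the treated libraries, against 0.503, 0.568 and 0.412 CPM in the DMSO libraries (log2 fold change 2.25 ± 0.28 SE, edgeR adjusted p = 1.72e-05). DNAH11, a dynein heavy chain of motile cilia (arm 2p, 895150255 to 896766441), had 12.7, 12.2 and 11.01 CPM in the treated libraries, against 2.49, 2.33 and 2.82 CPM in the DMSO libraries (log2 fold change 2.23 ± 0.17 SE, edgeR adjusted p = 1.73e-07).

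The largest decreases included genes of chromosome segregation and condensation. CDCA2, which brings a phosphatase to chromatin at the end of mitosis (arm 10q, 422917819 to 424023250), had 0.806, 0.465 and 0.902 CPM in the treated libraries, against 5.44, 4.69 and 5.01 CPM in the DMSO libraries (log2 fold change -2.75 ± 0.24 SE, edgeR adjusted p = 9.01e-07). CENPI, a kinetochore protein (arm 5p, 604035871 to 605148570), had 1.54, 2.44 and 1.62 CPM in the treated libraries, against 10.2, 9.03 and 8.53 CPM in the DMSO libraries (log2 fold change -2.33 ± 0.20 SE, edgeR adjusted p = 7.92e-07). In both the highest treated library was below the lowest DMSO library. SMC2.L (arm 6q, 284748585 to 285786179) and SMC4 (arm 10p, 870234171 to 871314879) encode the core ATPases of condensin, the complex that compacts mitotic chromosomes. SMC2.L had 5.35, 5.16 and 4.85 CPM in the treated libraries, against 31.4, 23.9 and 24.8 CPM in the DMSO libraries (log2 fold change -2.38 ± 0.15 SE, edgeR adjusted p = 4.51e-08). SMC4, which shared 12.4% of its exon bases with another model, had 6.33, 5.16 and 5.96 CPM in the treated libraries, against 39.6, 27.3 and 27.4 CPM in the DMSO libraries (log2 fold change -2.43 ± 0.17 SE, edgeR adjusted p = 1.08e-07). The partners in the complex thus fell by nearly the same amount. KIF2C, a kinesin that takes microtubules apart at centromeres (arm 1q, 1403283544 to 1404571950), had 9.22, 6.21 and 8.22 CPM in the treated libraries, against 37.2, 35.1 and 32.4 CPM in the DMSO libraries (log2 fold change -2.13 ± 0.15 SE, edgeR adjusted p = 1.21e-07). ZGRF1, a helicase of recombination repair (arm 6q, 476993472 to 478860661), had 1.34, 0.776 and 1.11 CPM in the treated libraries, against 6.64, 6.58 and 4.95 CPM in the DMSO libraries (log2 fold change -2.46 ± 0.23 SE, edgeR adjusted p = 1.76e-06). LOC112060334, described as tumor protein 63-like (arm 10q, 488552715 to 489560986), was the most variable of these, with 1.19, 0.3103 and 0.258 CPM in the treated libraries, against 2.52, 3.74 and 2.601 CPM in the DMSO libraries (log2 fold change -2.24 ± 0.43 SE, edgeR adjusted p = 6.15e-04).

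**Figure D4:**
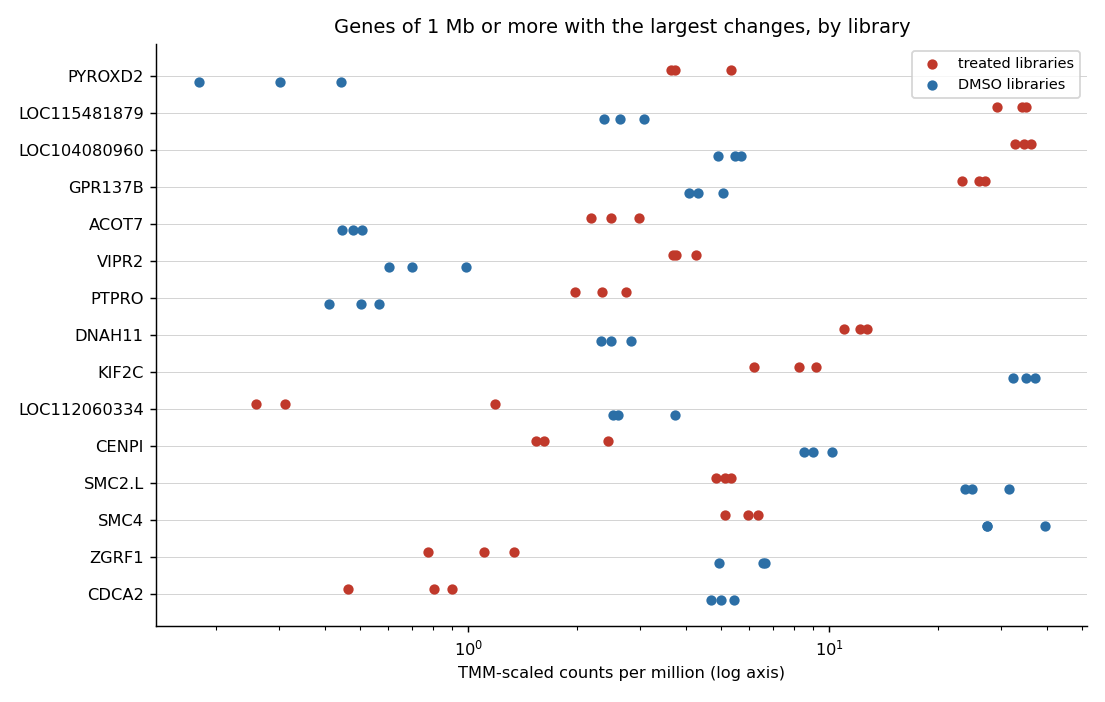
TMM-scaled CPM (log axis) in each treated (red, upper) and DMSO (blue, lower) library for the 8 long genes with the largest and 7 of the 8 with the smallest log2 fold change, among those called, with at least 1 CPM and with groups that do not overlap. The treated points are right of the DMSO points in the upper 8 genes and left of them in the lower 7, and treated replicate 1 of LOC112060334 lies apart from the other treated libraries.

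The long genes with the most reads included housekeeping genes. LOC114590001, described as a nucleoside diphosphate kinase (arm 3p, 762793215 to 763916886), had a mean of 799 CPM per kb of exon, far above every other long gene. It had 5082, 6387 and 5943 CPM in the treated libraries, against 2536, 3024 and 3519 CPM in the DMSO libraries, and no overlap (log2 fold change 0.94 ± 0.17 SE, edgeR adjusted p = 3.52e-04). ANXA7, a calcium-dependent membrane-binding protein (arm 8p, 705267581 to 706443439), had 436, 605 and 456 CPM in the treated libraries, against 229, 247 and 242 CPM in the DMSO libraries (log2 fold change 1.06 ± 0.14 SE, edgeR adjusted p = 3.66e-05). PIN4.L, a prolyl isomerase (arm 2p, 1194706705 to 1195775847), had 445, 594 and 449 CPM in the treated libraries, against 374, 393 and 399.6 CPM in the DMSO libraries (log2 fold change 0.35 ± 0.14 SE, edgeR adjusted p = 0.0464). Its call depends on the scaling and on single libraries, since it reversed to -0.04 by library size alone and missed the threshold without any of 5 libraries (DMSO replicates 1, 2 and 3 and treated replicates 2 and 3), with adjusted p from 0.0567 to 0.136. PABPC1, the cytoplasmic poly(A)-binding protein (arm 5q, 876222405 to 878298239), had 377, 275 and 324 CPM in the treated libraries, against 360.3, 379 and 373 CPM in the DMSO libraries, with overlap and no call (log2 fold change -0.19 ± 0.13 SE, edgeR adjusted p = 0.2597). Its longest gap took 71.2% of the span and 8 other models lay inside, so its place among the long genes rests on that gap. MONAX_5E024994 (arm 9q, 35520157 to 36912885) had 297, 319.8 and 316 CPM in the treated libraries, against 272, 317 and 345 CPM in the DMSO libraries, and the groups overlapped (log2 fold change -0.00 ± 0.12 SE, edgeR adjusted p = 0.9904).

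The long genes were also sorted into 12 lists by role, of which 11 are described and stand in the plot of role lists beside the shorter genes of the same list. Most long genes were in none of the 12 lists, and of these 1330 tested genes 305 were higher (22.9%) and 333 lower (25.04%) with a median log2 fold change of -0.02. Counts of a list are read against the 25.5% higher and 26.8% lower of all models. By library size alone that background was 13.3% higher and 40.3% lower, and the median of all models was -0.40. With upper-quartile scaling it was 28.9% higher and 23.3% lower. Fold changes in brackets after gene names are log2, with edgeR adjusted p. In each list the called gene with the largest change and the gene with the most reads are given by rule, and the other examples were chosen after their values were seen.

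**Figure D5:**
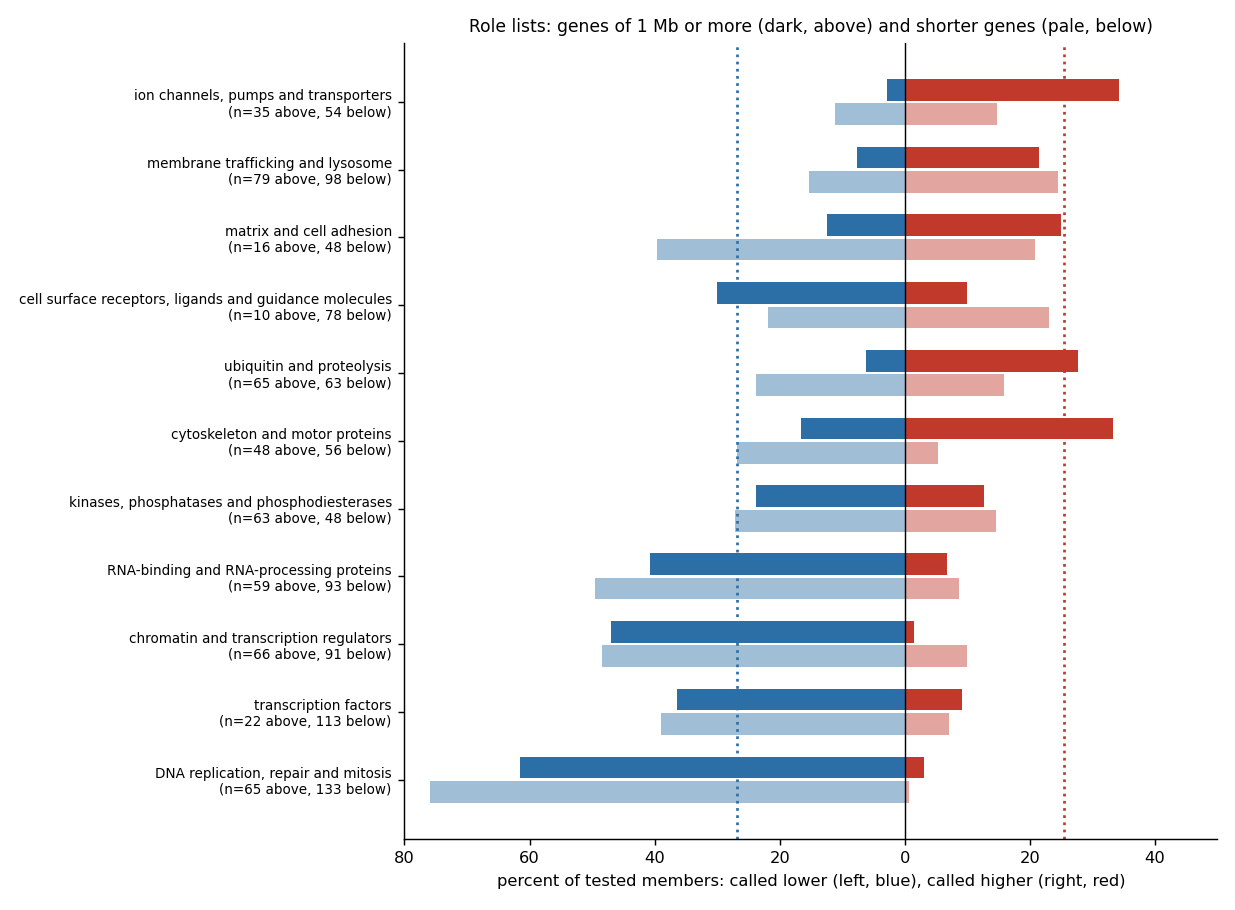
Percent of tested genes called higher (red, right of 0) and lower (blue, left of 0) in 11 role lists, for genes of 1 Mb or more (dark, upper bars) and shorter genes (pale, lower bars), with dotted lines for all models tested (25.5% and 26.8%). Lists are ordered by the median log2 fold change of the long genes. The 40 lower genes of 65 in DNA replication, repair and mitosis stand at the bottom, and the 12 higher genes of 35 in ion channels, pumps and transporters at the top.

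Genes of DNA replication, repair and mitosis held the most lower calls. Of 65 long members, 40 were lower (61.5%) and 2 higher, with a median log2 fold change of -0.62. The shorter genes of the list had 101 lower and 1 higher of 133 and a median of -1.29. Scaled by library size alone, 51 long members were lower and 1 higher with a median of -1.01, and with RLE or upper-quartile scaling 4 were higher. Beside the condensin and kinetochore genes above, the lower ones included CENPF, another kinetochore protein (-2.10, adjusted p = 1.86e-06), RFC1, the large subunit of the clamp loader (-2.09, adjusted p = 1.13e-06), ANAPC1, a subunit of the ligase that starts anaphase (-2.05, adjusted p = 1.06e-05), and POLQ, a polymerase of break repair by end joining (-1.98, adjusted p = 5.70e-05). POLQ had 0.716, 0.543 and 0.541 CPM in treated cells and 2.995, 2.003 and 2.19 CPM in DMSO cells, without overlap. ATR, the kinase that answers to stalled forks, was lower as well (-1.17, adjusted p = 0.00797). The 2 higher genes, named after their values were seen, were RAD50 and ORC4. RAD50, part of the complex that senses DNA breaks, had 42.2, 37.3 and 39.4 CPM in the treated libraries, against 22.9, 20.7 and 19.5 CPM in the DMSO libraries (0.91, adjusted p = 2.67e-05). ORC4, a subunit of the origin recognition complex (arm 9q, 616552361 to 618312763), had the most reads of the list, with 61.8, 76.1 and 68.8 CPM in the treated libraries, against 44.98, 45.9 and 49.5 CPM in the DMSO libraries (0.56, adjusted p = 0.00118), but by library size alone it was not called (0.18, adjusted p = 0.165).

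Chromatin and transcription regulators showed the same direction. Of 66 long members, 31 were lower (47.0%) and 1 higher, with a median of -0.49, beside 44 lower and 9 higher of 91 shorter members and a median of -0.56. By library size alone 43 long members were lower and 0 higher with a median of -0.85. The list holds NSD1, NSD2 and NSD3, histone methyltransferases of 1 family, and each was lower. NSD2 (arm 6q, 1384737864 to 1386517788) had 3.18, 3.297 and 2.99 CPM in the treated libraries, against 12.3, 11.7 and 11.8 CPM in the DMSO libraries (-1.92, adjusted p = 3.44e-07), with little spread within groups. NSD1 (-1.62, adjusted p = 4.97e-05) and NSD3 (-0.96, adjusted p = 0.0137) followed, with PBRM1, a subunit of a SWI/SNF remodeler (-1.58, adjusted p = 9.14e-06), and TET3, which oxidises methylated cytosine (-1.30, adjusted p = 0.01499) and had passed the count minimum through the DMSO group only. GATAD2A, a subunit of the NuRD complex (arm 1p, 333313891 to 334480315), had the most reads of the list, with 39.6, 25.1 and 34.01 CPM in the treated libraries, against 61.3, 55.6 and 47.6 CPM in the DMSO libraries (-0.73, adjusted p = 0.00153). The only higher member, ZMYND11, a reader of methylated histone H3 (0.39, adjusted p = 0.0413), was named after its value was seen. Its groups overlapped, and it was not called without treated replicate 3 or DMSO replicates 2 or 3.

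RNA-binding and RNA-processing proteins, in which nuclear pore and nuclear transport proteins were counted, had 24 of 59 lower (40.7%) and 4 higher, with a median of -0.41, beside 46 lower and 8 higher of 93 shorter members and a median of -0.46. Scaled by library size alone, 38 were lower and 0 higher with a median of -0.77. The lower ones included nucleoporins. NUP210, a pore membrane protein (arm 2q, 503085909 to 504423280), had 1.298, 1.05 and 0.619 CPM in the treated libraries, against 4.93, 2.54 and 3.46 CPM in the DMSO libraries (-1.88, adjusted p = 2.07e-04). NUP160 (-1.75, adjusted p = 2.66e-06), NUP155 (-1.26, adjusted p = 0.00201) and NUP153 (-1.25, adjusted p = 2.17e-04) were lower too, as was the transport receptor TNPO3 (-1.16, adjusted p = 2.42e-06). IPO5, an importin with the most reads of the list (arm 7q, 169381602 to 170533021), had 250.3, 224 and 224 CPM in the treated libraries, against 270.3, 217 and 206 CPM in the DMSO libraries, with overlap and no call (0.01, adjusted p = 0.956). The 4 higher genes, named after their values were seen, were RBM33 (0.88, adjusted p = 0.0433), STAU1 (0.61, adjusted p = 5.51e-04), LARP4B (0.53, adjusted p = 0.00903) and PTBP3 (0.50, adjusted p = 0.01903), which all bind RNA, and without DMSO replicate 2 the count was 2. RBM33 shared 12.9% of its exon bases with another model, and its groups overlapped.

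Of 22 transcription factors 8 were lower (36.4%) and 2 higher, with a median of -0.55, beside 44 lower and 8 higher of 113 shorter factors and a median of -0.33. With library size as the only scaling, 14 long factors were lower and 1 higher with a median of -0.91. RFX3, a factor for ciliary genes (arm 6p, 1060869743 to 1061897989), had 0.134, 0.271 and 0.464 CPM in the treated libraries, against 0.906, 0.777 and 0.666 CPM in the DMSO libraries (-1.44, adjusted p = 0.0146), and it was not called without treated replicate 1 (adjusted p = 0.0555) or DMSO replicate 1 (adjusted p = 0.0668). NFATC3, which answers to calcium, was lower (-0.99, adjusted p = 0.00921). TCF12, with the most reads (arm 11p, 131229408 to 132298014), had 38.8, 34.5 and 35.1 CPM in the treated libraries, against 39.9, 33.6 and 30.7 CPM in the DMSO libraries and was not called (0.06, adjusted p = 0.727). The 2 higher factors, named after their values were seen, were CUX1 (0.87, adjusted p = 3.72e-04) and ATF2 (0.37, adjusted p = 0.0327), and without DMSO replicate 1, 2 or 3 or treated replicate 2 the count was 1.

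The opposite balance was found in ion channels, pumps and transporters. Of 35 long members, 12 were higher (34.3%) and 1 lower (2.86%), with a median of 0.35, beside 8 higher and 6 lower of 54 shorter members and a median of 0.17. By library size alone the long members had 6 higher, 4 lower and a median of -0.00. Relative to the median of all models, they lay 0.38 above with TMM scaling and 0.39 above by library size alone. GRID1, a glutamate receptor subunit (arm 8q, 86484863 to 87738707), had 0.851, 0.776 and 1.16 CPM in the treated libraries, against 0.151, 0.329 and 0.286 CPM in the DMSO libraries (1.88, adjusted p = 0.00156), and it had passed the count minimum through the treated group only. The subunits of the proton pump that acidifies lysosomes were among the higher genes. ATP6V1C1 (arm 5q, 894709932 to 896024447) had the most reads, with 198, 286 and 207 CPM in the treated libraries, against 93.6, 91.4 and 98.3 CPM in the DMSO libraries (1.28, adjusted p = 7.33e-06), and ATP6V1A.S had 127, 110.2 and 109 CPM in the treated libraries, against 81.98, 76.8 and 68.04 CPM in the DMSO libraries (0.61, adjusted p = 7.36e-04). In both the lowest treated library was above the highest DMSO library. SLC17A5, which exports sialic acid from lysosomes (1.30, adjusted p = 8.93e-04), CLCN3, an endosomal chloride exchanger (0.70, adjusted p = 0.00873), and PIEZO2, a channel opened by force (1.00, adjusted p = 0.0253), were higher. The lower one, named after its value was seen, was SLC25A13.S, a mitochondrial carrier (-0.53, adjusted p = 9.66e-04), and without treated replicate 2 there were 2.

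Membrane trafficking and lysosome genes had 17 of 79 higher (21.5%) and 6 lower (7.59%), with a median of 0.29, beside 24 higher and 15 lower of 98 shorter members and a median of 0.14. By library size alone the long members had 8 higher and 17 lower and a median of -0.08, and with upper-quartile scaling 26 were higher. Relative to the median of all models, they lay 0.31 above both with TMM scaling and by library size alone. Without treated replicate 1 the median was 0.17, and without DMSO replicate 2 it was 0.18. RAB3GAP2, which regulates Rab GTPases (arm 4q, 963473659 to 965438470), had 6.65, 4.27 and 4.46 CPM in the treated libraries, against 2.44, 1.55 and 1.78 CPM in the DMSO libraries (1.41, adjusted p = 2.65e-04). LYST, a regulator of lysosome size (1.22, adjusted p = 0.00156), LAMP2, a lysosomal membrane protein (0.98, adjusted p = 9.93e-06), and VPS41, of the complex that tethers late endosomes (0.81, adjusted p = 3.02e-05), were higher. LAMP2 had 138, 125 and 153 CPM in treated cells and 67.9, 72.7 and 69.7 CPM in DMSO cells, without overlap. DNM1L, the dynamin that divides mitochondria, with the most reads of the list (arm 12p, 138009363 to 139085511), had 306, 255 and 284 CPM in the treated libraries, against 213, 231 and 224 CPM in the DMSO libraries (0.34, adjusted p = 0.0282). Its call was lost without any library but treated replicate 2, with adjusted p from 0.0649 to 0.0865, and it reversed to -0.02 by library size alone. TBC1D1, a Rab GTPase regulator of glucose transporter traffic, was lower (-0.90, adjusted p = 2.21e-04).

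Ubiquitin and proteolysis genes had 18 of 65 higher (27.7%) and 4 lower (6.15%), with a median of 0.09, beside 10 higher and 15 lower of 63 shorter members and a median of 0.07. By library size alone the long members had 5 higher, 16 lower and a median of -0.28. Relative to the median of all models, they lay 0.12 above both with TMM scaling and by library size alone. The 65 long models carry 59 symbols, so a symbol can be counted more than once. The count of higher genes was 10 without DMSO replicate 2 and 11 without DMSO replicate 3, and that of lower genes 2 without DMSO replicate 1 or 2. Leaving out DMSO replicate 3 gave a median of 0.05, and leaving out DMSO replicate 1 gave 0.30. USP34, a deubiquitinase, carries the largest change and is described with its second model below. PSMD14, the deubiquitinase of the proteasome lid, with the most reads of the list (arm 9q, 533891024 to 535037216), had 391, 475 and 409 CPM in the treated libraries, against 219, 235 and 251 CPM in the DMSO libraries (0.86, adjusted p = 8.14e-05), with no overlap. The ubiquitin ligases UBR3 (1.35, adjusted p = 0.001195) and NEDD4 (0.69, adjusted p = 0.0185) and the scaffold CUL5 (0.62, adjusted p = 8.59e-04) were higher. The 4 lower genes, named after their values were seen, were the ligase HECW2 (-0.98, adjusted p = 0.00242), the SUMO proteases SENP7 (-0.84, adjusted p = 0.00254) and SENP6 (-0.46, adjusted p = 0.0323) and the SUMO ligase PIAS2 (-0.59, adjusted p = 0.0278). Those last 3 act on SUMO and not on ubiquitin, and SENP6 shared 13.9% of its exon bases with another model.

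Cytoskeleton and motor proteins had 16 of 48 higher (33.3%) and 8 lower (16.7%), with a median of 0.04, beside 3 higher and 15 lower of 56 shorter members and a median of -0.20. By library size alone the long members had 6 higher and 14 lower and a median of -0.32. Relative to the median of all models, they lay 0.07 above with TMM scaling and 0.08 above by library size alone. Without DMSO replicate 1 the lower count was 4 and the median 0.10, while without treated replicate 2 the median was 0.12. The 16 include 3 models of DNAH5, a ciliary dynein heavy chain, with log2 fold changes of 1.21, 2.05 and 0.78, so the number of genes is smaller than that of models. The model with 2.05 had passed the count minimum through the treated group only. Beside DNAH11 and DNAH5, the higher models included DYNC2H1, the dynein of transport within cilia (0.93, adjusted p = 0.0263), MAP2, a microtubule-binding protein (1.25, adjusted p = 4.52e-04), and DST, a linker of filament systems (1.05, adjusted p = 0.00826). KIF5B, a kinesin of vesicle transport, with the most reads of the list (arm 2p, 792124215 to 793817754), had 63.5, 55.2 and 62.4 CPM in the treated libraries, against 39.3, 34.97 and 34.1 CPM in the DMSO libraries (0.74, adjusted p = 1.26e-04), and by library size alone it was not called (0.38, adjusted p = 0.0569). NAV1, a protein of microtubule tips (-2.02, adjusted p = 8.75e-04), FMN1, an actin nucleator (-1.30, adjusted p = 2.46e-05), and ANK3, a membrane adaptor (-1.12, adjusted p = 0.009697), were lower. NAV1 had 0.694, 1.16 and 0.232 CPM in treated cells and 2.84, 3.35 and 1.94 CPM in DMSO cells.

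In the remaining lists calls were fewer or went both ways. Kinases, phosphatases and phosphodiesterases had 8 higher and 15 lower of 63 with a median of -0.17, beside 7 and 13 of 48 shorter members with -0.21, and by library size alone the long members had 2 higher, 25 lower and a median of -0.54. There were 4 higher without DMSO replicate 2 or 3 and 9 lower without DMSO replicate 1, and the median was -0.07 when treated replicate 1 was left out and -0.09 when DMSO replicate 2 was. ROCK2, a kinase of actomyosin contraction (arm 4p, 394452400 to 395611288), had 2.75, 1.44 and 1.21 CPM in the treated libraries, against 5.74, 9.03 and 6.53 CPM in the DMSO libraries (-1.95, adjusted p = 7.56e-05). STK39, a kinase of ion transport control, was higher (1.84, adjusted p = 7.91e-06), while PDE4D, which breaks down cyclic AMP (-1.35, adjusted p = 0.00187), and the focal adhesion kinase PTK2 (-0.59, adjusted p = 0.00174) were lower. MAP3K7, a kinase of inflammatory and TGF-beta signalling, with the most reads of the list (arm 4p, 823665046 to 824717875), had 54.8, 61.4 and 53.1 CPM in the treated libraries, against 51.9, 43.3 and 40.03 CPM in the DMSO libraries (0.32, adjusted p = 0.0426). It shared 20.8% of its exon bases with another model, reversed to -0.06 by library size alone, and lost its call without treated replicate 2 or 3 or DMSO replicate 2 or 3, with adjusted p from 0.0699 to 0.200.

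Of 16 matrix and adhesion genes 4 were higher and 2 lower, with a median of 0.20 (-0.15 by library size alone), beside 10 higher and 19 lower of 48 shorter members and a median of -0.16. Single libraries moved the median of the long members, to -0.03 without treated replicate 3, 0.03 without DMSO replicate 1, 0.11 without DMSO replicate 2 and 0.31 without treated replicate 2. The higher ones, named after their values were seen, were LTBP1, which holds latent TGF-beta in the matrix (1.18, adjusted p = 2.03e-04), the fibrillar collagen COL24A1 (1.03, adjusted p = 0.0214), CNTNAP2 (above) and ADAM17, the sheddase of TNF (0.78, adjusted p = 0.00119). LTBP1 had 38.2, 36.2 and 39.3 CPM in treated cells and 23.6, 12.3 and 14.1 CPM in DMSO cells, without overlap. TJP1, a tight junction scaffold, was lower (-0.89, adjusted p = 4.18e-04), and without treated replicate 1 or 3 or DMSO replicate 1 or 2 a single lower gene was left. COL27A1, another fibrillar collagen (arm 8p, 268121370 to 269303221), had 0.0671, 0.388 and 0.0773 CPM in the treated libraries, against 0.579, 0.747 and 0.254 CPM in the DMSO libraries (-1.75, adjusted p = 0.0318), close to the floor of 3 counts per library (0.0643 to 0.105 CPM). It had passed the count minimum through the DMSO group only, and its call was lost without treated replicate 1 or 3 or DMSO replicate 1 or 2, with adjusted p from 0.106 to 0.142. ADAM10, a sheddase with the most reads of the list (arm 11q, 36438100 to 37790880), had 68.3, 61.9 and 77.4 CPM in the treated libraries, against 74.9, 40.8 and 45.4 CPM in the DMSO libraries. DMSO replicate 1 alone overlapped with the treated libraries (0.37, adjusted p = 0.119), and without it the difference was called (0.68, adjusted p = 0.00235).

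Among 10 receptors, ligands and guidance molecules 1 was higher and 3 lower, with a median of 0.14 (-0.21 by library size alone), beside 18 and 17 of 78 shorter members with -0.08. With upper-quartile scaling 3 long members were higher and 3 lower. The median turned to -0.16 without treated replicate 1, and was 0.02 without DMSO replicate 3 and 0.32 without treated replicate 2. TENM3, a teneurin adhesion receptor (arm 6q, 938063556 to 939428857), had the most negative log2 fold change of any long gene named here, with 0.0224, 0.155 and 0.103 CPM in the treated libraries, against 1.26, 1.196 and 0.825 CPM in the DMSO libraries (-3.65, adjusted p = 5.84e-05), at levels near 1 CPM and below. It had passed the count minimum through the DMSO group only. In treated replicate 1 it lay below the floor of 3 counts (0.0643 CPM), and in the other treated libraries close to that floor. Its fold change thus rests on few reads in the treated group. DDR2, a collagen receptor with the most reads of the list (arm 1q, 731387157 to 732608799), had 24.6, 13.7 and 22.1 CPM in the treated libraries, against 34.4, 34.02 and 37.3 CPM in the DMSO libraries (-0.80, adjusted p = 0.00171). NEO1, a guidance receptor (-0.83, adjusted p = 0.00415), was lower and LRP6, a co-receptor for Wnt (0.76, adjusted p = 0.0189), higher. Both were named after their values were seen, and LRP6 was not called without treated replicate 1 or 3 or DMSO replicate 2 or 3, while without treated replicate 2 the higher count was 2.

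Some neighbouring models of the long genes carry the same symbol, lie on the same strand and are at most 1 Mb apart. There were 19 such pairs among the long genes. In the NEDD4L pair the distance was -267736 bp, so its models overlap. Whether a pair is 1 gene cut by the annotation or a tandem copy cannot be told apart from the table. Where the pair is 1 gene, the upstream model reports its start and the downstream model its end. In the 18 pairs with both models tested, 15 had the same sign of log2 fold change, 5 were called in the same direction in both models, 5 in only 1 model and 8 in neither, and in 0 pairs were the calls opposite. The upstream model had the higher fold change in 9 pairs and the lower in 9, with a median difference of -0.01. ECPAS, a proteasome adaptor, was higher in both models, by 1.15 ± 0.24 SE in the upstream model and by 1.21 ± 0.20 SE in the downstream one on the log2 scale, with edgeR adjusted p of 0.00125 and 0.000206.

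USP34 stood out among the pairs, and was looked at for its size of change. Its models lie on arm 4q from 404297187 to 406081790 and from 406106572 to 407965684, only 24782 bp apart, and together cover 3.67 Mb. The upstream model had 4.28, 7.52 and 5.49 CPM in the treated libraries, against 1.13, 1.49 and 1.40 CPM in the DMSO libraries (log2 fold change 2.09 ± 0.24 SE, adjusted p = 1.08e-05). The downstream model had 0.873, 1.90 and 1.13 CPM in the treated libraries, against 1.18, 1.08 and 0.793 CPM in the DMSO libraries (log2 fold change 0.31 ± 0.33 SE, edgeR adjusted p = 0.449). The ratio of upstream to downstream CPM was thus 4.90, 3.96 and 4.84 in treated and 0.957, 1.39 and 1.76 in DMSO libraries, without overlap. The ratios of the groups did not overlap in 5 of the 19 pairs, with the treated ones above in USP34, MROH1 and MYCBP2 (whose upstream model shared 13.9% of its exon bases with another model) and below in ADD1 and PHLPP2. In ADD1, where neither model was called, the ratios were 1.70, 1.67 and 1.54 in treated and 1.88, 2.11 and 1.72 in DMSO libraries. An exact permutation test of 3 libraries against 3, two-sided, gave p = 0.1 for each of these 5, the smallest it can give, so no adjusted value can pass. Libraries without a difference between the groups would separate in either direction with that same probability of 0.1.

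Exon length had a Spearman correlation with the log2 fold change of -0.09 over the 1893 long genes and of -0.20 over 13081 shorter genes, given as a description. When the genes were split into 5 classes of summed exon length, the lowest class (531 to 3642 bp) had 30.2% higher and 21.2% lower. The highest class (10151 to 51622 bp) had 16.4% higher and 23.8% lower, while the share called lower was highest, at 28.7%, in the second class. Shorter genes in the same ranges of exon length had 32.8% higher and 23.2% lower, and 17.7% higher and 29.96% lower. Level and log2 fold change had a Spearman correlation of -0.02 in the long genes. Of 5 classes of level, the lowest had 17.5% higher and 11.0% lower, the middle one 15.3% higher and 33.7% lower, and the highest 34.1% higher and 24.9% lower. Shorter genes in the same ranges of level had 18.4% higher and 18.4% lower, 19.9% and 34.5%, and 39.7% and 27.8%. The longest gap as a share of the span made less difference, from 20.03% higher and 27.9% lower in the class with the smallest share to 21.8% and 22.6% in that with the largest, out of 3 classes. Among the 20 chromosome arms with at least 40 long genes, the share called higher ran from 10.9% on 3q to 33.0% on 9q.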

How the data were processed

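Polyadenylated RNA of 6 AL1 libraries was sequenced. Per the submitters' processing notes the tools were bcl2fastq 2.20.0, STAR 2.7.7a and featureCounts 2.0.1, and the name of the deposited table gives the AmexG_v6_DD assembly. The authors deposited whole-number read counts per gene model with its exon positions and its exon length in bp. Whether the counting used strand is not given in the sources used here, and the library kit does not mark it. Rows of 92 spike-ins, all at 0, stayed out of library sizes and tests, and the choice of long genes left out 37 mitochondrial rows.

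Span was the largest exon end minus the smallest exon start. Counts (28604727 to 46686876 per library, so that 3 counts are 0.0643 to 0.105 CPM before TMM scaling) were tested with edgeR 4.0.16 in R 4.3.3, with filterByExpr leaving 17424 models, TMM scaling, glmQLFit, glmQLFTest and Benjamini-Hochberg adjustment over all of them. The fit was also run on simulated counts in which few models changed, equally in both directions. Many models changed in the real libraries, so that run cannot judge the scaling. CPM are scaled with the TMM factors. The SE beside a log2 fold change is its absolute value divided by the square root of the F statistic of the edgeR test. Tables were made with Python 3.11.15, pandas 2.3.3 and statsmodels 0.14.6. Each long gene was matched, without reuse, to a shorter gene within 0.25 SD of log exon length and log level. The alternatives were other scalings, other filters, DESeq2 1.42.0, each library left out, and other definitions of the long genes.

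Named by rule were the 8 largest and 8 smallest log2 fold changes among called genes of at least 1 CPM with groups apart, the 6 longest genes, the 6 with the most reads, in each role list the called gene with the largest change and that with the most reads, and the 2 genes on each side of each threshold. The long genes, the role lists and the marker lists were chosen with earlier results of these data known. Of 1902 model names, 1594 are symbols in RefSeq's table of another axolotl assembly, used for names only. Some results of the rule and lists are not reported here.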

Additional observations from a re-analysis of the deposited data

How the results depend on the processing

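No paired analysis was possible because the replicate numbers follow the order of the records and pair nothing. With upper-quartile scaling the median log2 fold change of the long genes was 0.047, that of the 1 to 2 Mb class 0.0069 and that of the 3 Mb class 0.82. By library size alone, 149 long genes were higher and 781 lower, beside 13.3% and 40.3% of all models. The median of the long genes was then -0.41, with -0.45 at 1 to 2 Mb, -0.26 at 2 to 3 Mb and 0.36 at 3 Mb or more. PIN4.L (-0.035), MAP3K7 (-0.059) and DNM1L (-0.025) reversed there, and PABPC1 (-0.54) and MONAX_5E024994 (-0.37) were called lower. Without a filter on low counts PIN4.L, MAP3K7, DNM1L and GIT2 were not called. With models of at least 1 CPM the 3 Mb class had a median of 0.44, and leaving out a library gave 0.55 to 0.87.

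With a minimum span of 500 kb, 1068 of 4772 tested genes were higher (22.4%) and 1288 lower (27.0%), beside 25.5% and 26.8% of all models. With 2 Mb, 59 of 220 were higher (26.8%) and 36 lower (16.4%), the median was 0.14 and the difference from matched shorter genes 0.30. Matching on the number of exons gave a difference of 0.19. Removing the trend with exon length, chosen after seeing the data, gave a median of 0.079, with 0.042 at 1 to 2 Mb, 0.27 at 2 to 3 Mb and 0.90 at 3 Mb or more. The cause of these moves was not tested, other than that smaller or larger minimum spans hold more or fewer genes. Of 53 named models tested, 39 kept their side of the threshold under every alternative in which they had a value. With models of at least 1 CPM, 45 of the 53 had one. Those that did not, beside the ones given in the text, were CCSER1, called with upper-quartile scaling and without treated replicate 1 or DMSO replicate 2, GIT2, a call lost with RLE and upper-quartile scaling, with DESeq2 and without any library but treated replicate 2 (adjusted p from 0.0578 to 0.117), and INPPL1, called without DMSO replicate 1 (0.66, edgeR adjusted p = 0.0409). Among the long genes of the lowest level, 266 of 372 tested were not called, and whether low counts limit them was not tested.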

Other observations

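Long genes were also grouped by the letters of their symbols before the first digit. The groups were formed after the values were seen, and groups with at least 8 long gene models are described, of which there were 19. Counts are read against the 25.5% higher and 26.8% lower of all models, and counts by library size alone against 13.3% and 40.3%. More members were higher than lower in 9 of them and more lower than higher in 9. The nucleoporins were the most one-sided, with 9 of 10 NUP models lower and 0 higher. Their median was -1.26 on the log2 scale, and 9 were lower under every scaling and without any of the libraries. The autophagy genes of the ATG group had 4 of 7 tested higher and 0 lower with a median of 0.55 (2 higher and 1 lower by library size alone). The vacuolar sorting genes of the VPS group had 5 of 10 higher and 0 lower with a median of 0.59, and by library size alone 4 higher and 1 lower. The ATP group of ion pumps and lipid flippases had 5 of 9 higher and 0 lower with a median of 0.61, and by library size alone 2 higher and 0 lower. The deubiquitinases of the USP group had 8 of 22 higher and 1 lower with a median of 0.24, but 4 higher without DMSO replicate 2 or 3. By library size alone the USP group had 2 higher, 5 lower and a median of -0.12. Relative to the median of all models, it lay 0.27 above with TMM scaling and 0.28 above by library size alone.

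Of the long genes between 2 and 3 Mb, a few were singled out after their values were seen. PCDH15, a cadherin of inner ear hair cells, was near 0 in DMSO cells, with 0.649, 0.427 and 0.645 CPM in the treated libraries, against 0.0503, 0 and 0 CPM in the DMSO libraries. The treated libraries were above the floor of 3 counts in each library and the DMSO libraries below it, so PCDH15 had passed the count minimum through the treated group only. SHANK2, a scaffold of synapses, had 1.03, 1.47 and 1.01 CPM in the treated libraries, against 0.277, 0.149 and 0.286 CPM in the DMSO libraries (log2 fold change 2.26 ± 0.39 SE, edgeR adjusted p = 2.76e-04). It too had passed the count minimum through the treated group only. PLA2G4A, the phospholipase that releases arachidonic acid, had 43.3, 40.1 and 47.5 CPM in the treated libraries, against 19.2, 16.7 and 17.5 CPM in the DMSO libraries (log2 fold change 1.29 ± 0.12 SE, edgeR adjusted p = 1.43e-06). In SHANK2 and PLA2G4A the groups did not overlap. FANCC, of the crosslink repair pathway, had 1.77, 1.71 and 1.495 CPM in the treated libraries, against 4.05, 4.12 and 4.19 CPM in the DMSO libraries (log2 fold change -1.31 ± 0.20 SE, edgeR adjusted p = 9.23e-05). In FANCC all 3 treated libraries were below the DMSO libraries.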
